A study of Mus musculus with 14 samples.

Results

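The genes described here encode the SR proteins and the heterogeneous nuclear ribonucleoproteins (hnRNPs), the main families of RNA-binding regulators of splicing. Members were taken by symbol: every gene named Srsf with a number or beginning with Hnrnp, plus Tra2a and Tra2b, leaving out symbols that end in -ps. Of 34 matching rows 1 was left out for that ending, which gave 33 members among 45706 genes, 13 SR and 20 hnRNP. All 33 are protein-coding genes in GENCODE M21. Expression was measured by RNA sequencing in 14 mouse libraries that compare cells with and without Prmt5, the gene of an arginine methyltransferase, and every animal carried floxed Prmt5 alleles (PRMT5fl/fl), controls included. Fetal liver cells at E14.5 came from PRMT5fl/fl embryos without Cre (WT) or with Vav-cre (KO), a transgene driven by a promoter active in blood cells. They were sorted by the erythroid surface antigen Ter119 into negative (Ter119neg) and positive (Ter119pos) cells, with 2 libraries in each of the 4 groups. Mice 1 and 2 (KO) and mouse 4 (WT) supplied both fractions, mouse 3 supplied a Ter119neg WT library and mouse 5 a Ter119pos WT library. LK cells, a sorted progenitor population, came from PRMT5fl/fl mice without (WT) or with (KO) Mx1-cre, a Cre under an interferon-induced promoter, and were collected 7 days after poly(I:C) in both genotypes, with 3 libraries (letters A, B and C) per group. No label ties the LK libraries to separate mice, so their p-values measure the spread between libraries, which may be technical.

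SR proteins carry RNA recognition motifs and a domain of repeated arginine and serine. They bind exonic enhancers, recruit spliceosome components and are switched by phosphorylation through the SRPK and CLK kinases. hnRNPs coat nascent RNA, often through RNA recognition motifs, KH domains or glycine-rich and arginine-rich stretches, and many of them repress exons or tie splicing to stability and export. Members of both families commonly regulate their own transcripts through exons or introns that send the RNA to nonsense-mediated decay. The deposited values are counts per gene, so the amount of each gene's RNA could be compared, and its splicing could not.

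Each library held 19514550 to 30976961 counts, of which the members together took 39813 to 424234. Levels below are CPM, counts divided by the library size after scaling by the trimmed mean of M-values, and a gene was called when the edgeR quasi-likelihood test gave an adjusted p under 0.05 over all genes tested, 13771 in LK and 15566 in the fetal libraries. Prmt5 itself checked the labels: within each population its KO libraries all lay below its WT libraries, with edgeR log2 fold changes of -2.81 in LK (adjusted p = 0.00669), -3.57 in Ter119neg (1.45e-07) and -1.89 in Ter119pos (2.31e-06). Globin genes took 16.4% to 25.1% of counts in Ter119pos and 0.0679% to 0.183% in Ter119neg, and Kit, the progenitor receptor, ran from 209 to 388 CPM in LK. Both letter B libraries of LK stood apart, with 18.04% (WT) and 23.4% (KO) of counts on 18S ribosomal RNA against 0.179% at most in the other 4. The fetal groups differed in what else was sequenced: protein-coding genes took 75.7% to 76.2% of counts in Ter119pos WT and 44.5% to 45.3% in Ter119pos KO, while the 7SL RNA genes Rn7s1 and Rn7s2 took 4.28% to 4.63% and 25.3% to 25.9%. In bulk RNA, fewer cells of a type and less RNA per cell cannot be told apart.

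Of the 33 members 32 passed the filter on low counts in both data sets. Srsf12, a divergent SR gene, was the exception, with 0 to 6 counts in any library. Per kilobase of principal transcript the hnRNP A/B group led. In LK WT cells Hnrnpa2b1, which binds RNA for splicing and transport, stood at 626 ± 155 CPM per kilobase (SD, n = 3). Its paralogs Hnrnpa3 (536 ± 212) and Hnrnpa1 (394 ± 96.5), the exonic-enhancer reader Srsf2 (393 ± 274) and the G-tract binder Hnrnpf (300 ± 50.4) came next, and neighbours in this order did not differ beyond their spread. Lowest after Srsf12 were Hnrnpr (5.9 ± 1.48), Hnrnph3, Hnrnpll and Hnrnpu on the same scale. In Ter119neg WT cells Hnrnpf, Hnrnpa1 and Hnrnpa2b1 lay between 145 and 159 CPM per kilobase (n = 2), followed by Hnrnpa3 (105 ± 3.18) and Srsf2 (102 ± 2.82). Ter119pos WT cells differed in their second place: Srsf5, an SR protein whose RNA ranked 11 in Ter119neg WT, stood at 232 ± 26.5 CPM per kilobase beside Hnrnpa2b1 at 234 ± 1.67. The order depends on the transcript length used. With the union of all annotated exons Srsf2 led in LK WT and Hnrnpa2b1 ranked 6. The Srsf2 mean in LK WT is raised by library B, at 1349 CPM against 449 and 443 in A and C. The low place of Hnrnpr rests on a principal transcript of 21452 bases. Hnrnpa1, Hnrnpa3 and others have processed pseudogenes of near-identical sequence, and reads shared with them may have been split in counting, so their absolute levels are uncertain.

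Features of the loci that the selection by symbol did not use were read from the annotation and from RefSeq. GENCODE M21 lists a transcript of the nonsense-mediated decay class for 11 of 13 SR genes (84.6%) and 10 of 20 hnRNP genes (50.0%), against 20.8% of 21951 protein-coding genes, and a retained-intron transcript for 10 of 13 (76.9%), 14 of 20 (70.0%) and 41.5%. These shares also depend on how many transcripts are annotated, with a median of 7 per SR gene, 8 per hnRNP gene and 3 per coding gene. Windows of 250 bases before the start were available for 13 SR and 18 hnRNP genes in RefSeq on GRCm38.p6. They held a median of 23 CpG dinucleotides in each family, against 6 over all 27025 windows and 10 over 17491 windows of protein-coding genes. The CCAAT box, searched as CCAAT on both strands, was present in 12 of 18 hnRNP windows (66.7%) and 4 of 13 SR windows (30.8%), with 34.5% of all windows and 36.3% of coding ones. The GC box, searched as GGGCGG on both strands, was present in 12 of 13 SR windows (92.3%) and 13 of 18 hnRNP windows (72.2%), with 32.9% of all and 42.7% of coding ones. Matches that overlap were counted separately, and a match describes the letters only. The windows below belong to a pair of genes that fell and a pair that rose in Ter119pos KO cells, and they were chosen after those values were seen. They are Srsf5 (chr12:80945397-80945498, plus strand), Hnrnpr (chr4:136310692-136310941, plus strand), Srsf7 (chr17:80207308-80207459, minus strand) and Hnrnpc (chr14:52104029-52104271, minus strand). Capitals mark CCAAT and GGGCGG or their reverse complements, and of each window the longest stretch outside annotated exons is printed:
Srsf5: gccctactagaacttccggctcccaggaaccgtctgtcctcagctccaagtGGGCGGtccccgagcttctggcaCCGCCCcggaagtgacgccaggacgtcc
Hnrnpr: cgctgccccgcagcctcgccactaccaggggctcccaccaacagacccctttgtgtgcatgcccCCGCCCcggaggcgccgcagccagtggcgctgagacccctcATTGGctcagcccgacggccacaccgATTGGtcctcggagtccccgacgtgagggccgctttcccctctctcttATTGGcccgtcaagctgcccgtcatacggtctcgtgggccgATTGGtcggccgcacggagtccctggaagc
Srsf7: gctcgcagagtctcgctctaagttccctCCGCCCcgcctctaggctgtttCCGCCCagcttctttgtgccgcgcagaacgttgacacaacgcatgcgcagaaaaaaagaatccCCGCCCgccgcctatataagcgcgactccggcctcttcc
Hnrnpc: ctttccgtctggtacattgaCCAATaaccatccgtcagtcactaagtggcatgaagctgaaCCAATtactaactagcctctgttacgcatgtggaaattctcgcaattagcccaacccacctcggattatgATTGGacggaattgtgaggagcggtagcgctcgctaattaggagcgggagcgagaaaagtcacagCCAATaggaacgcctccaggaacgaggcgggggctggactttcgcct
The Hnrnpr and Hnrnpc stretches each hold 4 CCAAT matches and the Srsf5 and Srsf7 stretches hold none. The Srsf7 stretch holds 3 GC boxes, that of Srsf5 holds 2, that of Hnrnpr 1 and that of Hnrnpc 0. Srsf10 and Hnrnpm were also chosen among the genes that fell, but their windows left no stretch outside annotated exons. The stretches of Srsf5, Hnrnpr, Srsf7 and Hnrnpc differ in length, with 102, 250, 152 and 243 bases. The full windows of Srsf5 and Srsf7 hold 3 GC boxes each. So few chosen stretches cannot show whether either motif goes with the direction of change.

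More members were called in Ter119pos cells without Prmt5 than in LK or Ter119neg cells: 25 fell and 2 rose. Srsf5, Srsf10, Srsf4 and Srsf1 led among the SR genes that fell, and Hnrnpm, Hnrnpr, Hnrnpdl and Hnrnpul1 among the hnRNP genes, by 1.77-fold to 2.92-fold. Srsf7 and Hnrnpc rose. Called were 27 of 32 members (84.4%), and 54.2% of all genes tested were called in this comparison, 29.3% lower and 24.8% higher. Among the 5997 genes at or above the mean level of the lowest member the called share was 75.7%, so the members' share is read against that value. The median log2 fold change was -0.60 over the members, -0.22 over those 5997 genes and -0.04 over all genes. In Ter119neg 19.1% of all genes were called and in LK 1.82%. Simulated 2-fold changes were called for 96 of 100 genes in Ter119pos and 4 of 100 in LK. The counts of calls therefore do not compare how many members changed in each population.

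Among SR genes, Srsf5 was at 384 (library A) and 326 (library B) CPM in WT and at 153 and 132 CPM in KO. Every KO library lay below every WT library, a 2.49-fold difference (log2 fold change -1.31, SE 0.14, edgeR adjusted p = 4.99e-06). Srsf10, an SR protein that acts as a repressor when dephosphorylated, had 151 and 143 CPM in WT against 68.8 and 76.4 in KO (log2 fold change -1.02, SE 0.12, edgeR adjusted p = 1.25e-05). Srsf4, a large SR protein with a long arginine and serine domain, had 49.2 and 43.8 CPM against 24.4 and 23.2 (log2 fold change -0.97, SE 0.13, edgeR adjusted p = 5.34e-05). For both genes the KO libraries were again the lower ones without overlap. Srsf1, the prototype of the family, had 420 and 396 CPM in WT against 237 and 224 in KO (log2 fold change -0.82, SE 0.13, edgeR adjusted p = 0.000189). Tra2a, which binds purine-rich enhancers, fell from 70.9 and 73.0 CPM to 45.2 and 45.9, whereas its paralog Tra2b had 131 and 129 CPM in WT against 109 and 125 in KO and was not called (edgeR adjusted p = 0.312). Srsf2, Srsf3, Srsf6 and Srsf11 fell as well, and Srsf9 was not called (edgeR adjusted p = 0.746). Srsf7, whose protein has a zinc knuckle beside its RNA recognition motif, went the other way: 56.8 and 64.6 CPM in WT against 76.1 and 79.5 in KO (log2 fold change 0.36, SE 0.12, edgeR adjusted p = 0.0204). Both KO libraries lay above both WT libraries. The calls of Srsf7 and Srsf3 were the least stable: Srsf7 lost its call without KO library A, KO library B or WT library A (edgeR adjusted p = 0.051, 0.0932 and 0.154), and Srsf3 without KO library A, WT library A or WT library B (0.129, 0.0665 and 0.0584).

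Among hnRNP genes, Hnrnpr, which binds nascent and transported mRNA, had 177 and 152 CPM in WT and 62.8 and 49.8 in KO. The groups did not overlap and differed 2.92-fold, the widest gap of any member (log2 fold change -1.55, SE 0.14, edgeR adjusted p = 1.49e-06). Hnrnpm, a splicing regulator that binds GU-rich RNA, had 171 and 153 CPM in WT against 60.8 and 60.1 in KO (log2 fold change -1.42, SE 0.12, edgeR adjusted p = 9.36e-07). Hnrnpdl, the paralog of the AU-rich element binder Hnrnpd, had 115 and 112 CPM against 49.1 and 41.3 (log2 fold change -1.32, SE 0.12, edgeR adjusted p = 1.75e-06). Both genes were lower in every KO library. Hnrnpul1, a relative of the nuclear scaffold protein Hnrnpu, had 216 and 191 CPM against 92.6 and 89.9 (log2 fold change -1.15, SE 0.13, edgeR adjusted p = 8.55e-06). By subfamily, all 3 U-type genes fell (Hnrnpu, Hnrnpul1 and Hnrnpul2), as did all 3 D-type genes (Hnrnpd, Hnrnpdl and Hnrnpab) and all 4 F/H genes (Hnrnpf, Hnrnph1, Hnrnph2 and Hnrnph3). The A group was mixed: Hnrnpa2b1 fell from 391 and 387 CPM to 281 and 267, and Hnrnpa3 from 184 and 179 to 134 and 125. In contrast Hnrnpa0 (15.4 and 15.8 CPM in WT, 16.9 and 16.3 in KO) and Hnrnpa1 (192 and 210 in WT, 186 and 215 in KO) were not called. Hnrnpl, which binds CA repeats, was not called either (135 and 130 CPM in WT, 135 and 122 in KO), while its lymphoid paralog Hnrnpll and the C-tract binder Hnrnpk fell. Hnrnpc, which binds uridine tracts in nascent RNA, rose from 105 and 114 CPM to 141 and 148 (log2 fold change 0.40, SE 0.12, edgeR adjusted p = 0.0166), with both KO libraries above both WT libraries. Leaving out KO library B ended that call (edgeR adjusted p = 0.0768), as did leaving out WT library A (0.104).

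The 2 increases turned to decreases with library totals, and the 25 decreases kept their direction and, but for Srsf3, their call under each scaling tried. Srsf3 was not called with globin and 18S counts removed (-0.29, edgeR adjusted p = 0.0671). When library totals replaced the trimmed-mean factors, an alternative added after the data were seen, all 32 members were called lower (62.7% of all genes were called), Hnrnpc at -0.50 and Srsf7 at -0.53, while the median of all genes moved from -0.04 to -0.93. Relative to the median of all genes, the members' median was -0.56 on the log2 scale with either scaling. A change of scaling shifts every gene by nearly the same amount, so this difference could hardly move and is no check of the fall. Of the 27 calls 20 kept their direction and their call under every alternative but the 2 added later (library totals and the length trend). With the 4 Ter119pos libraries fitted alone 22 members were called. The share of all genes called in that fit is not given, so the count is not read as a result about the members. Marker sums of other cells differed in part: hepatoblast genes summed to 26.1 to 37.0 CPM in WT and 51.2 to 72.8 in KO (2 of 5 called higher, none at 0), megakaryocyte genes to 18.5 to 19.8 and 28.1 to 29.1 (3 of 5 higher, 1 lower, Gp1bb at 0 in WT library B), macrophage genes to 38.3 to 68.1 and 38.6 to 50.9 (1 of 9 higher, 3 lower), and granulocyte genes to 91.7 to 181 and 27.9 to 79.9 (4 of 8 lower). Of 7 erythroid genes 1 was lower. The part of these and of the 7SL share in the members' values was not tested.

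**Figure D1:**
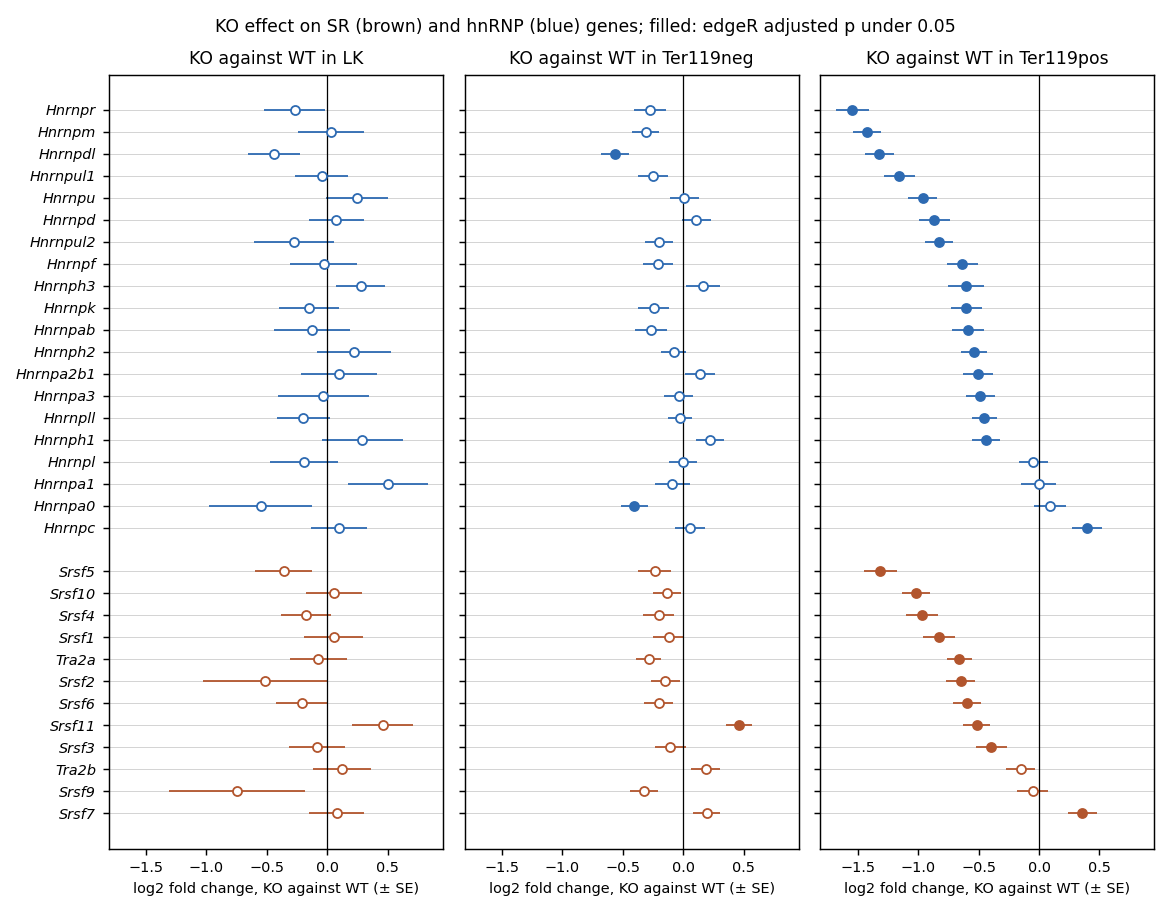
Each point is the log2 fold change of KO against WT with its SE (horizontal axis) for 1 tested gene (vertical axis, SR brown, hnRNP blue) in LK, Ter119neg and Ter119pos, filled where the edgeR adjusted p is under 0.05. No LK point is filled, 3 are in Ter119neg and 27 in Ter119pos, where all but Srsf7, Hnrnpc and the uncalled Hnrnpa0 lie below 0 (Srsf7 and Hnrnpc also do when scaled by library totals).

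Summed over the family, SR genes reached 1925 to 2034 CPM in Ter119pos WT and 1241 to 1245 in Ter119pos KO, and hnRNP genes 3275 to 3347 and 2189 to 2194. WT and KO libraries did not overlap for either family. As a share of all deposited counts both families together took 0.426% to 0.445% in Ter119pos WT and 0.140% to 0.165% in Ter119pos KO. With globin counts set aside these shares were 0.569% to 0.589% and 0.172% to 0.198%. In Ter119neg the summed levels were 3914 to 4064 CPM in WT and 3671 to 3834 in KO, with shares of 0.674% to 0.798% and 0.522% to 0.597%. In LK the families took 0.730% to 1.38% in WT and 0.775% to 1.49% in KO. These ranges overlap each other. They overlap that of Ter119neg WT only through the letter B libraries, at 0.730% (WT) and 0.775% (KO), which stood apart in their share of ribosomal RNA. The A and C libraries took 1.25% and 1.38% in WT and 1.37% and 1.49% in KO, above every fetal library. The LK libraries were made with another RNA kit and normalised apart, so no test was made between LK and fetal levels.

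**Figure D2:**
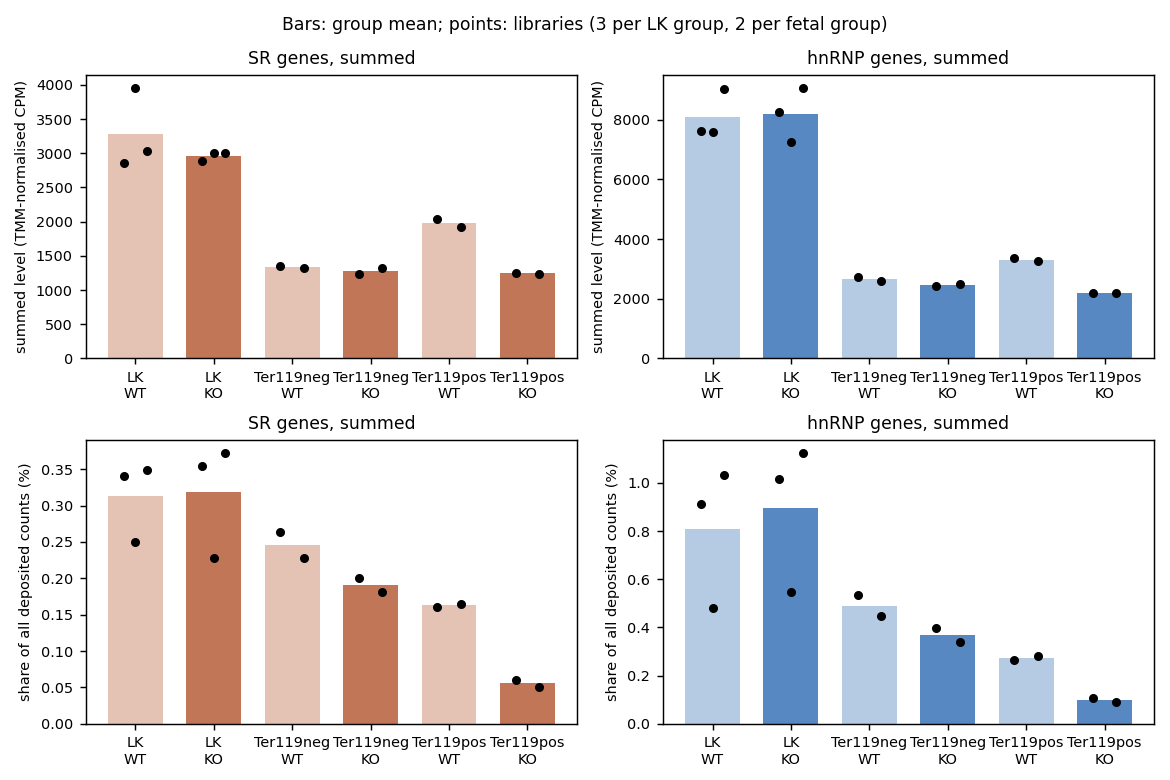
Bars give the group mean and points the libraries (3 per LK group, 2 per fetal group) of the summed SR (left) and hnRNP (right) levels, in normalised CPM above and as a percentage of all deposited counts below. Ter119pos KO libraries lie below Ter119pos WT libraries in all 4 panels, while the LK groups overlap.

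In Ter119neg cells few members were called: Hnrnpdl and Hnrnpa0 fell, Srsf11 rose, and the other 29 of 32 were not called. The called share of 9.38% stands beside 19.1% of all genes tested (9.57% higher, 9.55% lower) and 23.6% of those at or above the mean level of the lowest member. Hnrnpdl was at 62.1 (library A) and 68.0 (library B) CPM in WT and at 42.1 and 45.8 in KO. Both KO libraries were below both WT libraries (log2 fold change -0.56, SE 0.11, edgeR adjusted p = 0.00499). Hnrnpa0, a small hnRNP A protein that binds AU-rich elements, had 65.6 and 57.7 CPM against 42.7 and 50.5, again without overlap (log2 fold change -0.40, SE 0.11, edgeR adjusted p = 0.0234). Srsf11, an SR-related splicing factor, had 63.1 and 63.0 CPM in WT and 82.4 and 91.1 in KO, with both KO libraries higher (log2 fold change 0.46, SE 0.11, edgeR adjusted p = 0.012). Over all 32 the median log2 fold change was -0.13, against 0.01 for all genes and -0.03 for those at or above the level of the lowest member. An unadjusted edgeR p under the threshold was found for 6 of 32 members, against 32.4% of all genes tested. Only Hnrnpdl kept its call under every alternative, the 2 added later left aside. Without WT library A it was the 1 member called, and Srsf11 and Hnrnpa0 had edgeR adjusted p-values of 0.0936 and 0.177. Scaling by relative log expression within edgeR added Hnrnpm, Srsf9 and Tra2a, all lower, for a total of 6 (19.7% of all genes were called), and DESeq2 called 4. The shares of all genes called by DESeq2 and without WT library A are not given. With library totals 9 members were called lower and 0 higher, where 22.8% of all genes were called, and Srsf11 was not called (0.15, edgeR adjusted p = 0.589), while the median of all genes moved to -0.30. Cell markers moved in the same libraries: macrophage genes summed to 126 to 131 CPM in WT and 29.7 to 33.9 in KO with all 9 called lower, erythroid genes to 399 to 486 and 769 to 1375 with 6 of 7 higher, progenitor genes to 313 to 332 and 271 to 297 with 3 of 5 lower, and hepatoblast genes to 228 to 376 and 110 to 220 with 1 of 5 lower. None of the genes of these 4 lists was at 0 in these libraries, and their part in the 3 calls was not tested.

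The difference of the KO effect between the fractions was tested as an interaction, which uses the same 8 libraries. Called were 20 of 32 members (62.5%), against 41.7% of all genes tested (19.3% higher, 22.4% lower) and 58.9% of the 7103 genes of at least the lowest member's level. By family, 50% of SR genes were called, below the 64.3% among genes at or above the level of the lowest SR gene. For hnRNP genes the share was 70%, beside the same 58.9%. The effect was lower in Ter119pos for 19 and higher for Hnrnpa0. Hnrnpr differed by -1.27 (SE 0.19, edgeR adjusted p = 0.000239), Hnrnpm by -1.11 (SE 0.16, adjusted p = 0.000223), Hnrnpd by -0.97 (SE 0.18, adjusted p = 0.000942) and Hnrnpu by -0.97 (SE 0.17, adjusted p = 0.000726). Among SR genes Srsf5 differed by -1.08 (SE 0.19, edgeR adjusted p = 0.000726), Srsf11 by -0.98 (SE 0.16, adjusted p = 0.000402), Srsf10 by -0.88 (SE 0.16, adjusted p = 0.00101) and Srsf4 by -0.76 (SE 0.18, adjusted p = 0.00535). Srsf11 was called in opposite directions on the trimmed-mean scale: it was higher in Ter119neg KO (not called with library totals, at 0.15) and fell from 119 and 111 to 77.6 and 83.2 CPM in Ter119pos KO (edgeR adjusted p = 0.0018). Hnrnpa0 was lower by 0.40 in Ter119neg KO and stood at 0.09 in Ter119pos, a difference of 0.50 (SE 0.17, edgeR adjusted p = 0.0349) that became -0.069 with library totals. Mice 1, 2 and 4 supplied both fractions, and with the mouse as a block 21 members were called lower and 0 higher, against 40.2% of all genes called. Hnrnpa0 (0.39, edgeR adjusted p = 0.0629) and Hnrnpll (-0.36, adjusted p = 0.0528) were then not called. The counts fell to 10 without Ter119neg KO library A, 11 without Ter119neg KO library B, 10 without Ter119neg WT library A and 12 without Ter119neg WT library B. The shares of all genes called with a library left out are not given. Called under every alternative, the 2 added later left aside, were 8: Hnrnpd, Hnrnpm, Hnrnpr, Hnrnpu, Hnrnpul1, Srsf5, Srsf10 and Srsf11.

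**Figure D3:**
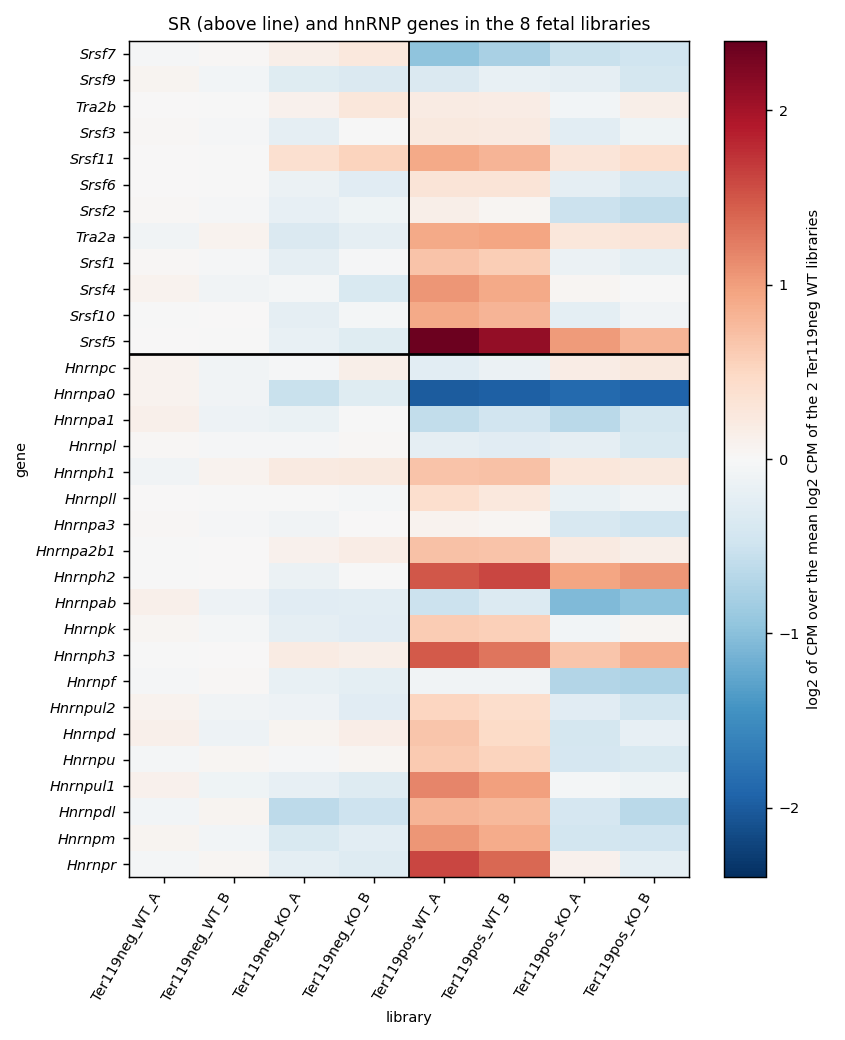
Colour gives the log2 of each gene's normalised CPM over its mean in the Ter119neg WT libraries, for the 32 tested members (rows, SR above the line, hnRNP below) in the 8 fetal libraries (columns). Most members are red in the 2 Ter119pos WT columns and near white in the 2 Ter119pos KO columns, and Srsf5 is the reddest at 384 and 326 CPM, whereas Hnrnpa0 and Srsf7 are blue in all 4 Ter119pos columns (the red of 16 genes turns to lower values when scaled by library totals).

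Between the fractions of control mice the members also moved. On the trimmed-mean scale 20 were higher in Ter119pos than in Ter119neg WT and 4 lower, while with library totals 16 of those 20 turned to lower values. Of 32 members 24 were called. The called share among all genes tested was 76.3% (35.9% higher, 40.4% lower), and it was 82.7% among the 6729 genes of at least the lowest member's level, so the members' share lay near the background. The members' median was 0.57, beside 0.32 over those 6729 genes and -0.19 over all genes. SR genes had a median of 0.47, below the 0.58 of the 4325 genes at or above the level of the lowest SR gene. With library totals the members' median was -0.60 and that of all genes -1.35. The WT fractions share only mouse 4.

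Srsf5 had the widest gap, with 76.5 (library A) and 74.6 (library B) CPM in Ter119neg WT and 384 and 326 in Ter119pos WT. That was 4.70-fold higher without overlap (log2 fold change 2.23, SE 0.14, edgeR adjusted p = 1.75e-08), and it was higher with library totals too, at 1.06. Tra2a had 35.5 and 40.0 CPM against 70.9 and 73.0 (log2 fold change 0.93, SE 0.10, edgeR adjusted p = 3.95e-06; -0.23 with library totals). Srsf11 (0.87, SE 0.11, edgeR adjusted p = 1.44e-05) and Srsf4 (0.98, SE 0.13, adjusted p = 1.48e-05) were higher by about as much, and turned to -0.30 and -0.19 with library totals. Among hnRNP genes Hnrnph2, an X-linked G-tract binder, had 36.5 and 37.3 CPM in Ter119neg and 103 and 112 in Ter119pos (log2 fold change 1.54, SE 0.11, edgeR adjusted p = 4.89e-08). Hnrnpr had 56.3 and 60.7 CPM against 177 and 152 (log2 fold change 1.49, SE 0.13, edgeR adjusted p = 5.6e-07). Hnrnph3 had 5.04 and 5.11 CPM against 14.0 and 12.4 (log2 fold change 1.38, SE 0.14, edgeR adjusted p = 1.97e-06). These 3 remained positive but were not called with library totals, at 0.38, 0.33 and 0.21. Hnrnpa0 went down most, from 65.6 and 57.7 CPM to 15.4 and 15.8, and was 3.95-fold lower (log2 fold change -1.98, SE 0.12, edgeR adjusted p = 1.54e-08; -3.15 with library totals). Srsf7, Hnrnpa1 and Hnrnpab were the other 3 called lower on both scalings. With the mouse as a block, where this contrast rests on mouse 4 alone, Hnrnpab stood at -0.21 and was not called.

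In KO mice, whose fractions both came from mice 1 and 2, the same contrast called 14 of 32 (43.8%), 4 higher and 10 lower, against 62.6% of all genes tested (30.3% higher, 32.3% lower) and 76.5% of the 7367 genes of at least the lowest member's level. The members' median was -0.08 and that of all genes -0.12, while the 7367 genes had a median of 0.21. For SR genes the median was -0.06, beside 0.42 over the 4595 genes at or above the level of the lowest SR gene. Srsf5 was at 66.7 (library A) and 61.4 (library B) CPM in Ter119neg KO and at 153 and 132 in Ter119pos KO (log2 fold change 1.16, SE 0.14, edgeR adjusted p = 1.01e-05), and Tra2a, Hnrnph2 and Hnrnph3 were the other 3 called higher. All 4 turned lower with library totals, under which all 32 members were called lower and 84.7% of all genes were called. Hnrnpa0 fell from 42.7 and 50.5 to 16.9 and 16.3 CPM (log2 fold change -1.49, SE 0.12, edgeR adjusted p = 4.89e-07), and Srsf7 from 121 and 131 to 76.1 and 79.5 (log2 fold change -0.70, SE 0.12, adjusted p = 0.000197). Both were also lower in WT. With the mouse as a block 17 were called, 7 higher and 10 lower, and 66.1% of all genes were. In that fit only the libraries of mice 1 and 2 inform the spread. Without Ter119neg KO library A 8 members were called, and without Ter119neg KO library B also 8. The split of calls depended on scaling: it was 7 higher and 5 lower with globin and 18S counts removed, 8 and 4 with scaling over protein-coding genes, and 12 and 6 with the length trend removed. The shares of all genes called under these settings are not given, so the splits are not read as a result about the members.

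**Figure D4:**
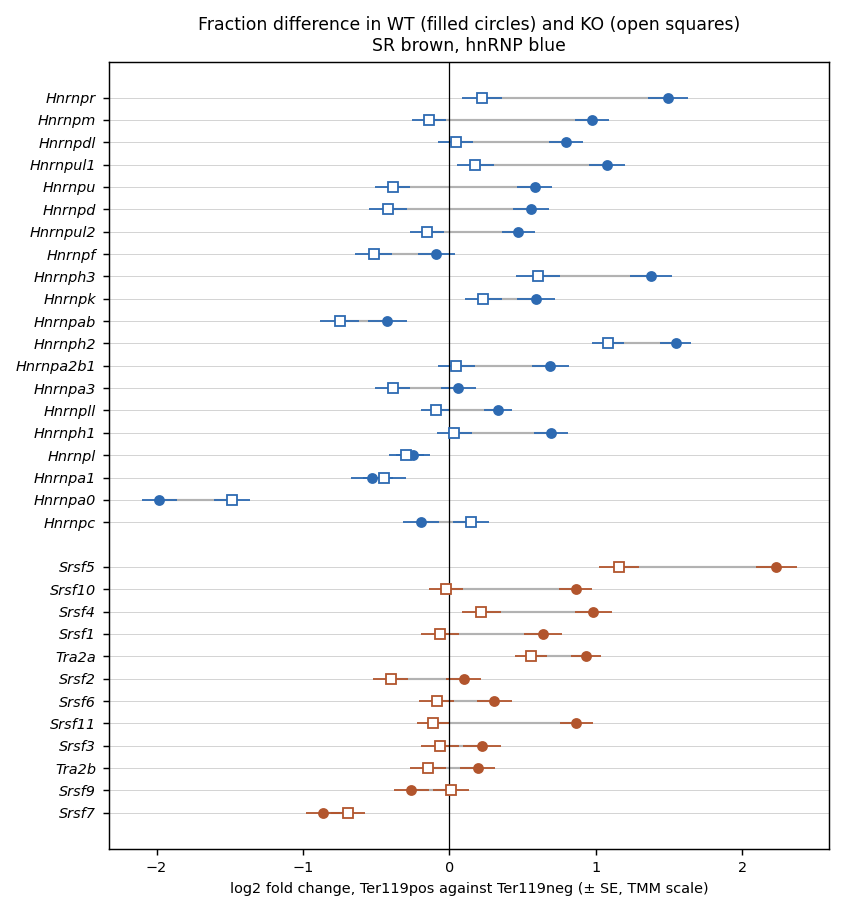
The log2 fold change of Ter119pos against Ter119neg on the trimmed-mean scale, with its SE, is shown for each tested gene (vertical axis, SR brown, hnRNP blue) in WT (filled circles) and KO (open squares). For 27 of 32 genes the KO square lies left of the WT circle, a distance that is the interaction above, and Srsf5 has the highest circle at 2.23 (library totals move the symbols left, 16 of the 20 called higher in WT to below 0).

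In LK cells no member was called in either direction by edgeR, against 1.82% of all genes tested. No member reached an unadjusted p under the threshold, which 17.5% of all genes did, and DESeq2 also called 0. Fold changes on the log2 scale ran from -0.74 to 0.50 with SE of 0.20 to 0.56. On simulated counts with the spread of these libraries (13635 genes), the LK comparison called 4 of 100 genes with a true 2-fold change and 59 of 100 with a 4-fold one, so in this fit, which has no block for the letter, changes of the size measured in Ter119pos were mostly not detectable. The SR genes with the smallest p were Srsf11 and Srsf5. Srsf11 had 143, 112 and 172 CPM in the WT libraries A, B and C and 206, 161 and 219 in KO. The KO library of each letter was above its WT library, though the groups overlap (log2 fold change 0.46, SE 0.25, edgeR adjusted p = 0.413). Srsf5 had 280, 283 and 342 CPM in WT against 223, 209 and 272 in KO, with every KO library below every WT library (log2 fold change -0.36, SE 0.23, edgeR adjusted p = 0.478). Hnrnpdl had 189, 191 and 222 CPM in WT against 146, 132 and 165 in KO, also without overlap (log2 fold change -0.44, SE 0.22, edgeR adjusted p = 0.35). Hnrnpa1 had 885, 543 and 837 CPM in WT against 1250, 792 and 1156 in KO, and its groups overlap (log2 fold change 0.50, SE 0.33, edgeR adjusted p = 0.487). Groups without overlap were found for 4 of 32 members, Srsf5, Srsf6 and Hnrnpdl lower in KO and Hnrnph3 higher, where 24.2% of all genes tested had none (12.9% lower, 11.3% higher).

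The letter B libraries stood apart for several members. Srsf2 had 1349 CPM in WT library B against 449 and 443 in A and C, and 718 in KO library B against 403 and 447. Srsf9 (205 CPM in WT library B, 62.6 and 50.3 in A and C) and Hnrnpa0 (509, 218 and 196) showed the same pattern. Without both letter B libraries their log2 fold changes went from -0.52 to -0.03, from -0.74 to -0.16 and from -0.55 to -0.19, and no member was called. Libraries of the same letter deviated together, and with the letter as a block 1 member was called against 22.7% of all genes tested, Srsf11 at 0.47 (edgeR adjusted p = 0.045), with Hnrnpdl at an adjusted p of 0.0512. With the block and a per-library trend on transcript length removed 7 of 32 were called, Srsf11, Hnrnpa1, Hnrnph1 and Hnrnph3 higher and Hnrnpdl, Hnrnpr and Hnrnpul2 lower. The share of all genes called was then 27.1%, so the members' count did not exceed it. Granulocyte genes summed to 21474 to 46786 CPM in WT and 8400 to 16287 in KO, with 0 of 8 called and none at 0. Macrophage genes summed to 239 to 303 CPM in WT and 110 to 228 in KO, also without overlap, with 1 of 6 tested called lower and up to 2 at 0 in a KO library. Erythroid genes summed to 64.2 to 338 and 59.1 to 185 CPM, which overlap, with 1 of 7 lower and none at 0. The part of these differences in the members' values was not tested.

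**Figure D5:**
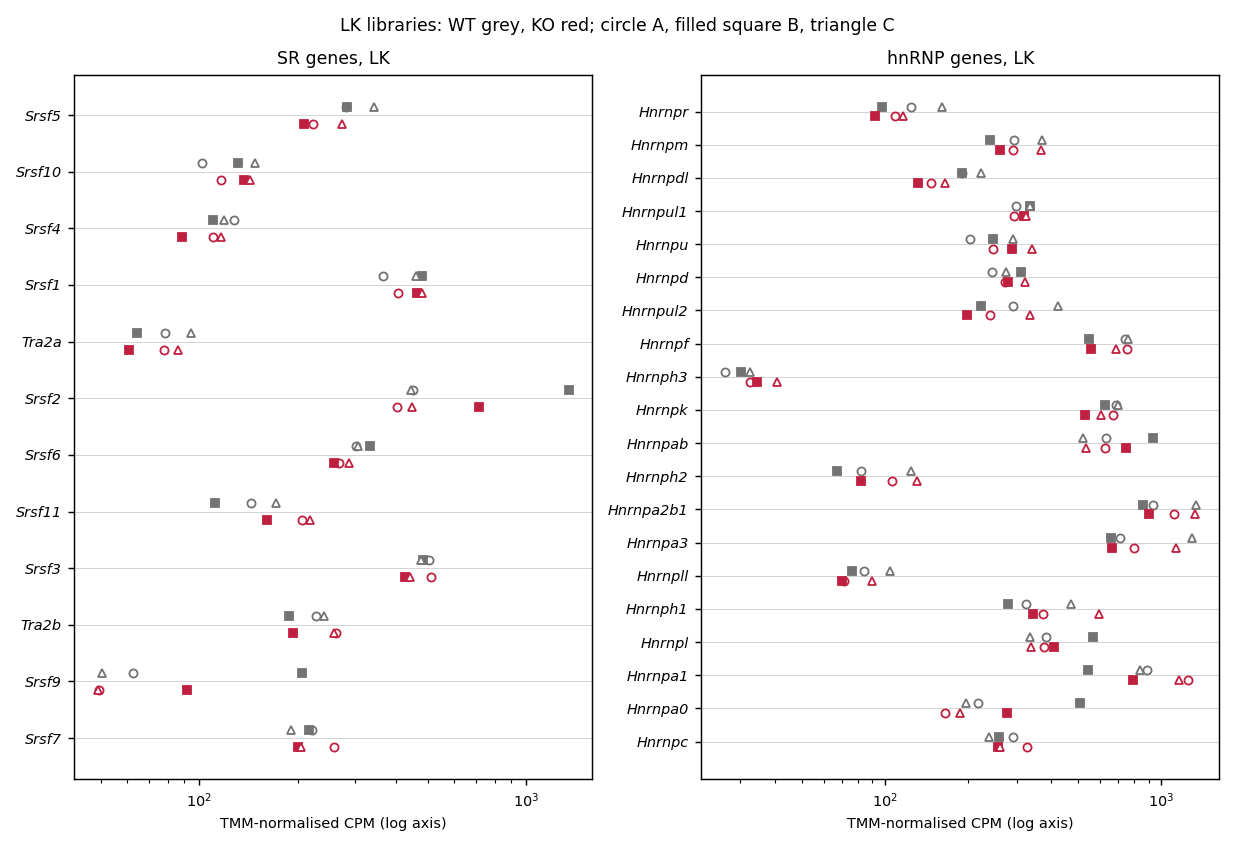
Points give the normalised CPM (log axis) of each tested SR (left) and hnRNP (right) gene in the 3 WT (grey) and 3 KO (red) LK libraries, with circles for letter A, filled squares for B and triangles for C. WT and KO points mix for 28 of 32 genes, and the squares of Srsf2, Srsf9 and Hnrnpa0 stand to the right of the other letters.

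Other genes of the same machinery were counted in lists. Their counts in Ter119pos KO, on the trimmed-mean scale, stand beside 29.3% of all genes tested lower and 24.8% higher. Among genes at or above the level of the lowest member 75.7% were called, but some tested list genes lie below that level, so this share is not matched to the lists. hnRNP proteins that carry other symbols (13 genes) had 8 members lower and 2 higher in Ter119pos KO. Rbmx, the X-linked gene of hnRNP G, had 35.3 and 33.1 CPM in WT against 10.2 and 9.32 in KO (log2 fold change -1.80, SE 0.13, edgeR adjusted p = 3.8e-07). Pcbp1, a C-tract binder, was higher on the trimmed-mean scale (log2 fold change 0.82, edgeR adjusted p = 3.65e-05). Library totals moved the median of all genes in this comparison from -0.04 to -0.93, and the Pcbp1 value on that scale is not given. Taf15, an RNA-binding protein, was the 1 gene of these splicing lists called in LK, where 1.82% of all genes tested were called. It had 90.0, 86.4 and 135 CPM in LK WT against 27.3, 24.0 and 35.9 in LK KO (log2 fold change -1.84, SE 0.27, edgeR adjusted p = 0.0279). It was lower in Ter119neg (-1.48, edgeR adjusted p = 0.000104) and in Ter119pos (-1.62, adjusted p = 1.91e-05) as well, and no KO library reached a WT library of its population.

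SR-related cofactors with arginine and serine domains (19 genes) had 15 lower and 0 higher in Ter119pos KO, led by the U1-associated Luc7l3 at -1.57 (edgeR adjusted p = 4.08e-07), with a list median of -0.88, where 29.3% of all genes were lower. In Ter119neg KO 1 of these 19 was called, against 19.1% of all genes tested: Zrsr2, a U2AF-related factor of the minor spliceosome, which rose by 0.59 on the log2 scale (edgeR adjusted p = 0.0192). Of 11 kinases and importers of SR proteins 8 were lower and 1 higher in Ter119pos KO. Clk4, a CLK kinase that phosphorylates SR proteins, had 13.2 and 14.46 CPM in Ter119neg WT, 95.8 and 85.3 in Ter119pos WT and 28.6 and 29.7 in Ter119pos KO. It was thus higher in Ter119pos than in Ter119neg WT (log2 fold change 2.71, edgeR adjusted p = 4.46e-10) and lower in Ter119pos KO than WT (-1.64, adjusted p = 2.52e-07). Clk3 showed the same order with 12.6 and 12.3, then 270 and 222, then 102 and 98.0 CPM. Srpk1, the cytoplasmic SR kinase, fell in Ter119neg KO (-0.75, edgeR adjusted p = 0.00096).

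Of 10 nonsense-mediated decay factors 8 were lower and 0 higher in Ter119pos KO, where 29.3% of all genes were lower, with the endonuclease Smg6 at -1.59 (edgeR adjusted p = 4.3e-07), while 0 were called in Ter119neg by edgeR, against 19.1% of all genes. Of 21 splicing regulators known for tissue-type patterns 17 were tested, and 9 were lower and 0 higher in Ter119pos KO, led by Qk at -1.48 (edgeR adjusted p = 7.51e-07). Medians of the 5 lists in Ter119pos KO lay between -1.02 and -0.38, beside -0.04 for all genes tested and -0.22 for those at or above the level of the lowest member. That level was not matched to the lists. In LK none of the other 4 lists had a called gene, where 1.82% of all genes tested were called, so the absence says little about the lists.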

How the data were processed

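Per the labels' protocols, Trizol was used for fetal liver RNA and a silica column for LK RNA, and all libraries were stranded total RNA, with Ribo-Zero depletion named for the fetal ones. Per the submitters' processing notes, STAR 2.5.3 aligned the reads and RSEM counted them, with GRCm38 (mm10) as the build. Neither an RSEM version nor an annotation release is stated. Values are the authors' deposited expected counts, which need not be whole.

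They were rounded and fitted with edgeR 4.0.16 under R 4.3.3 (quasi-likelihood F test, TMM, filterByExpr): the 6 LK libraries in 1 model, the 8 fetal libraries in another with a mean per group. Adjustment was by Benjamini-Hochberg over all genes tested, with calls under 0.05. The SE is the absolute log2 fold change over the root of F. Levels per kilobase use the middle length of the APPRIS principal transcripts in GENCODE M21. Members and gene lists were chosen with earlier results of these data known. Full statistics went to at most the 4 SR and 4 hnRNP members with the smallest adjusted p per comparison, to all where fewer were called, and to 2 of each family where none was. List genes named are among the 4 of smallest p. Other members are given by level or count, and those singled out for library B were chosen after their values were seen.

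In LK, deviations from the group means were correlated within each letter (r = 0.604, 0.719 and 0.73), so block results stand beside the LK results. In fetal libraries the letters gave 0.0047 and -0.029. Alternatives were RLE scaling, no filter, DESeq2 1.42.0, globin and 18S removed, scaling over protein-coding genes, 1 fraction alone, letter and mouse blocks, a length trend removed (lowess, span 0.3), library totals, and libraries left out. In simulated counts, calls were made for 95 of 100 genes with a true 2-fold change in Ter119neg (15250 genes) and 96 of 100 in Ter119pos (15205 genes), and for all 100 with a 4-fold change in each.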

Additional observations from a re-analysis of the deposited data

Results flagged for a closer look

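The effect of Prmt5 deletion differed between the Ter119 fractions for 20 members by the edgeR interaction test. The log2 difference, Ter119pos minus Ter119neg, was below 0 for 19: Hnrnpm (-1.11), Hnrnpr (-1.27), Srsf11 (-0.98), Hnrnpu (-0.97), Srsf5 (-1.08), Hnrnpd (-0.97), Srsf10 (-0.88), Hnrnpul1 (-0.90), Hnrnpdl (-0.76), Srsf4 (-0.76), Hnrnph1 (-0.66), Hnrnpul2 (-0.63), Srsf1 (-0.70), Hnrnph3 (-0.77), Hnrnpa2b1 (-0.64), Hnrnph2 (-0.46), Hnrnpll (-0.43), Srsf2 (-0.50) and Hnrnpa3 (-0.45). It was above 0 for Hnrnpa0 (0.50), which was not called with the mouse as a block (0.39, edgeR adjusted p = 0.0629), nor was Hnrnpll (-0.36, 0.0528). In the fit with that block the WT side rests on mouse 4 alone. These values come from 2 libraries per group. In the same test 62.5% of the members were called, beside 41.7% of all genes tested. Among genes at or above the lowest member's level the share was 58.9%, so the members' share lay near it.

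Hnrnph3 had values of opposite sign in LK and Ter119pos cells. Each LK KO library (32.5, 34.5 and 40.6 CPM) lay above the LK WT library of its letter and above every LK WT library (26.4, 30.2 and 32.5 CPM), the closest pair being nearly equal, a log2 fold change of 0.27, while both Ter119pos KO libraries (8.05 and 9.32 CPM) lay below both WT libraries (14.0 and 12.4 CPM), at -0.61. The LK value did not pass the edgeR test (adjusted p = 0.537), and the difference between the populations was not tested.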

How the results depend on the processing

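Every called member kept its direction under each alternative other than the 2 added after the data were seen. With the first, library totals in place of scaling factors, the log2 fold change of Ter119pos against Ter119neg in WT reversed for Hnrnpa2b1 -0.48, Hnrnpd -0.62, Hnrnpdl -0.36, Hnrnph1 -0.46, Hnrnpk -0.58, Hnrnpll -0.84, Hnrnpm -0.20, Hnrnpu -0.58, Hnrnpul1 -0.10, Hnrnpul2 -0.70, Srsf1 -0.53, Srsf10 -0.30, Srsf11 -0.30, Srsf4 -0.19, Srsf6 -0.86, Tra2a -0.23, and in KO for Hnrnph2 -0.66, Hnrnph3 -1.15, Srsf5 -0.59, Tra2a -1.18. The same setting gave -0.50 for Hnrnpc and -0.53 for Srsf7 in Ter119pos KO against WT and -0.069 for Hnrnpa0 in the interaction, and it raised the count of members called from 3 to 9 in Ter119neg KO and from 14 to 32 between the KO fractions. The second, removing the length trend, reversed Hnrnpd (0.013) and Hnrnpu (0.048) between the KO fractions.

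With the letter as a replicate block 1 member was called in LK, and 7 with the block and the length trend removed; in Ter119neg and Ter119pos the replicate block left 3 and 27. RLE scaling called 6 in Ter119neg. Leaving out 1 library gave 1 to 2 calls in Ter119neg, 24 to 26 in Ter119pos, 10 to 17 in the interaction, 21 to 24 between WT fractions, 8 to 11 between KO fractions and 0 in LK; a group left with 1 library was assumed to vary like the others. The causes of these changes were not tested. The shares of all genes called with a library left out are not given, so those counts are not read as results about the members. In simulated LK counts 2-fold changes were mostly not called, so differences of that size were mostly not detectable in the fit without the letter block. With the block 3129 genes were called in place of 250.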
